A study of Homo sapiens with 4 samples.

Results

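The genes described here encode ISG15, a ubiquitin-like protein, and the enzymes that attach it to other proteins or remove it: UBA7, UBE2L6, HERC5, HERC6 and USP18. They were chosen by symbol, and all 6 were found among the 16490 genes of the deposited table, on 7 of its 28581 RefSeq transcripts with values. The table holds RNA-seq of MV4-11, a human AML cell line, with 2 sh-NC libraries of control cells and 2 sh-CEBPG#3 libraries of cells with CEBPG knockdown. Per the study's methods the CEBPG hairpins were carried by the lentiviral vector pLKO.1-puro and stable cells were selected with puromycin; sh-NC is the hairpin control, and its vector is not given in the sources used here. Only 1 CEBPG hairpin was sequenced, and what this hairpin does by itself cannot be told apart from loss of CEBPG. Whether the replicates are separate infections is not given in the sources used here, so p-values measure the spread between these libraries, which may be technical.

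ISG15 is a small protein of 2 ubiquitin-like domains that cells make after exposure to interferon. It is joined to lysines of target proteins in a chain of steps called ISGylation, which mirrors ubiquitination: an E1 enzyme activates it, an E2 enzyme carries it, and an E3 ligase places it on the target. A protease removes it again. The genes of these enzymes are themselves known as interferon-stimulated genes; free ISG15 also acts inside cells and, once secreted, as a cytokine-like protein.

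The unit was FPKM, fragments normalised to transcript length and to the mapped fragments of the library, and values of a gene's transcripts were added up per library. Totals ranged from 364353 to 389766 FPKM over the libraries, and depth is unknown because the values hold no counts. CEBPG itself, the target of the hairpin, had a mean of 32.0 ± 2.23 FPKM in control cells (SD, n = 2) and 18.2 ± 1.53 FPKM in knockdown cells (SD, n = 2). Of 12 myeloid marker genes, 12 had a value above 0 in at least 1 library of each group, with CD33 and MPO at 26.8 FPKM or more in every library, and CD14, the monocyte marker, at 1.09 FPKM or less. The summed level of the 12 was 2507 and 2706 FPKM in control cells and 6541 and 6185 FPKM in knockdown cells. Of the 11 tested, 8 rose at an adjusted p under 0.05 in limma, as 18.5% of all genes tested did. LYZ (lysozyme) and ELANE (neutrophil elastase) were past 2-fold. Among the listed plasmacytoid dendritic cell markers, LILRA4 and GZMB were at 0.0664 FPKM or less in every library, and the list summed to 15.2 and 16.8 FPKM in control and 20.8 and 17.7 FPKM in knockdown cells, nearly all of it IL3RA. For the other lists of non-myeloid cells, the sums in sh-NC and sh-CEBPG#3 cells were at most 1.15 and 1.52 FPKM for B cells, 0.758 and 2.25 FPKM for megakaryocytes, 12.9 and 16.0 FPKM for epithelial cells and 0.0487 and 0.0781 FPKM for fibroblasts. GP9, a platelet glycoprotein gene, and KRT8, a keratin gene, rose by 1.04 and 1.12 on the log2 scale among these (adjusted p under 0.05 in limma). The other measured genes of their lists did not rise. KRT18 did not pass (-0.14, adjusted p = 0.261 in limma). ITGA2B, below the filter, had 0.138 and 0.0843 FPKM in control cells and 0.0749 and 0.0576 FPKM in knockdown cells. None of the 5 T cell and 5 erythroid markers listed was found among the genes with values. What part these marker shifts have in the results below was not tested. These are bulk libraries, in which fewer cells of a type and less RNA per cell cannot be told apart.

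All 6 genes of the ISG15 system lay higher in each knockdown library than in either control library, and 31.5% of the 12142 genes tested did so as well. The increase ran from 1.31-fold for UBA7 to 19.1-fold for ISG15 in mean FPKM. In limma on log2(FPKM + 1), 5 of the 5 genes that passed a filter of a mean of at least 0.5 FPKM rose at an adjusted p under 0.05, a call that 18.5% of the genes tested shared in this direction. The study called genes with DESeq2 at p under 0.05 and more than a 2-fold change. The same cut-offs were set here on limma's unadjusted p, so the calls are not the study's own. By this rule ISG15, USP18 and UBE2L6 were higher, 3 of 5 against 2.36% of the genes tested. HERC6, at 3.25-fold in mean FPKM, fell short of that rule on the log2(FPKM + 1) scale. It passed with a pseudocount of 0.1 or 0.01, which made 4 of 5. The share of all genes tested that passed at those pseudocounts is not given here. Without sh-CEBPG#3 replicate 2 the log2 fold change of HERC6 was 1.07. The median log2 fold change of the 5 was 1.96, and that of all genes tested was -0.04. The 5 genes were above 0.5 FPKM in the control libraries alone, so none passed the filter through the knockdown group. HERC5 did not pass it.

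The modifier itself moved the most. ISG15 (NM_005101) lies on the plus strand at chr1:1013497-1014540 of GRCh38, with 2 exons in its canonical GENCODE transcript. Its level was 7.12 and 8.52 FPKM with sh-NC against 149 and 150.3 FPKM with sh-CEBPG#3. Both knockdown libraries were far above both controls and nearly equal to each other. The means were 7.82 ± 0.989 FPKM and 149.5 ± 1.07 FPKM (SD, n = 2 each), and any knockdown library was between 17.5 and 21.1 times any control library. The log2 fold change was 4.10 with a standard error of 0.09 (95% interval 3.90 to 4.29, adjusted p = 1.34e-09 in limma), which put ISG15 at rank 7 of the 12142 genes by increase. By mean level, ISG15 was above 50.8% of the genes tested in control cells and above 97.5% of them in knockdown cells.

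The 250 bases upstream of the ISG15 start (chr1:1013247-1013496, plus strand, GRCh38.p14, from RefSeq) are shown because this is the gene with the largest increase among the 6. Capitals mark matches to the core of the interferon-stimulated response element (ISRE), the site bound by complexes that hold STAT2 and IRF9, searched here on both strands as GAAA, any 2 bases and GAAA again.
ISG15: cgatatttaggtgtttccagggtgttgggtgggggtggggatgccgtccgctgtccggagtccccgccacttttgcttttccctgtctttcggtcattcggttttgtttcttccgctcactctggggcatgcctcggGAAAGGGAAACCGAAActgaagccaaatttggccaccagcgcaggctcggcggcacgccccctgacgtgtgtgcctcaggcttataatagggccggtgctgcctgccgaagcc
The window holds 2 overlapping matches on the plus strand, from -113 to -104 and from -107 to -98 relative to the start. Of 35116 windows of this length in the RefSeq table, 3.02% hold at least 1 match and 0.225% hold at least 2.

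The activating enzyme showed the smallest change. UBA7 (NM_003335) is the E1 of ISG15 and lies on the minus strand at chr3:49805209-49813953 with 24 exons. Its values were 11.5 and 10.3 FPKM in control cells and 14.9 and 13.7 FPKM in knockdown cells, so the groups did not overlap but lay close together. The mean went from 10.9 ± 0.822 FPKM to 14.3 ± 0.851 FPKM (SD, n = 2 each). The log2 fold change was 0.36 with a standard error of 0.09 (95% interval 0.16 to 0.56, adjusted p = 0.00875 in limma). This call rested on single choices: it was lost without sh-CEBPG#3 replicate 1 (log2 fold change 0.31, adjusted p = 0.0629 in limma) and in the fit of single transcripts (0.36, adjusted p = 0.103 in limma).

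UBE2L6 is the E2 that carries ISG15 and lies on the minus strand at chr11:57551662-57567935, with 4 exons in its canonical transcript. Summed over its transcripts it stood at 8.07 and 8.22 FPKM with sh-NC and at 34.6 and 34.4 FPKM with sh-CEBPG#3. The libraries of a group were close to identical. The means of 8.14 ± 0.105 FPKM and 34.5 ± 0.104 FPKM (SD, n = 2 each) differ 4.24-fold, and the log2 fold change was 1.96 with a standard error of 0.08 (95% interval 1.78 to 2.13, adjusted p = 7.88e-08 in limma). Its transcript NM_004223 made up 96.9% and 100% of the gene's FPKM in control cells and 95.8% and 91.4% in knockdown cells. The minor transcript NM_198183 had 0.251 FPKM in 1 control library and was listed at 0 in the other, and it had 1.46 and 2.98 FPKM in the knockdown libraries. Tested by itself, NM_198183 did not pass (log2 fold change 1.48, adjusted p = 0.0688 in limma), whereas NM_004223 did (1.88, adjusted p = 0.00689 in limma). In that fit of single transcripts 4.16% of 18624 transcripts were called higher. RefSeq lists 2 start sites for UBE2L6, and neither window of 250 bases upstream holds the ISRE core.

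The ligases were the least expressed members. HERC5 is the main E3 ligase for ISG15 in human cells, and HERC6 is its close relative, which has this role in mouse cells. They are neighbours on the plus strand of chromosome 4, HERC6 at chr4:88378852-88443097 and HERC5 at chr4:88457119-88506163, each with 23 exons in its canonical transcript and 14022 bp apart. HERC6 (NM_017912) had 0.724 and 0.702 FPKM in control cells and 2.60 and 2.03 FPKM in knockdown cells. The mean rose from 0.713 ± 0.0154 FPKM to 2.32 ± 0.403 FPKM (SD, n = 2 each). The knockdown libraries differed more from each other than the control libraries did, but they did not overlap with them. On the log2(FPKM + 1) scale, which understates changes of low values, the log2 fold change was 0.95 with a standard error of 0.13 (95% interval 0.65 to 1.24, adjusted p = 0.000337 in limma). With a pseudocount of 0.1 or 0.01 it was 1.56 or 1.67, past 2-fold, and in the fit of single transcripts it missed the threshold (adjusted p = 0.0568 in limma).

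HERC5 (NM_016323) stood at 0.0303 and 0.0860 FPKM with sh-NC and at 0.547 and 0.426 FPKM with sh-CEBPG#3. The mean rose from 0.0581 ± 0.0393 FPKM to 0.486 ± 0.0855 FPKM (SD, n = 2 each), so the groups were apart while the control libraries differed from each other nearly as much as their mean. With a mean of 0.272 FPKM over the 4 libraries it was left out by the filter. In the fit without a filter its log2 fold change was 0.49 with a standard error of 0.06 (adjusted p = 0.0111 in limma), and 11.3% of the 16490 genes in that fit were called higher. With a pseudocount of 0.1 and no filter, a setting added once the values had been seen, it was 1.90 with a standard error of 0.29 (adjusted p = 0.0115 in limma). In knockdown cells HERC6 was above 21.3% of the genes tested. HERC5 was above 1.30% of them, a low place set in advance, since these genes had passed the filter that left HERC5 out.

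The windows upstream of these neighbouring ligase genes are shown because they differ in the motifs found. Capitals mark the ISRE core in HERC5 (chr4:88456869-88457118) and a C/EBP motif, TTGCNNAA on either strand, in HERC6 (chr4:88378602-88378851), both on the plus strand of GRCh38.p14 from RefSeq.
HERC5: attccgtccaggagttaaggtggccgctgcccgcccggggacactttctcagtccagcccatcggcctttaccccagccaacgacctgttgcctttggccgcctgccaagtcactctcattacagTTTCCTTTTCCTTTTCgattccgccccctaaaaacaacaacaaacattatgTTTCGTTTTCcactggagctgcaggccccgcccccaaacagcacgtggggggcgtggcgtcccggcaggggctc
HERC6: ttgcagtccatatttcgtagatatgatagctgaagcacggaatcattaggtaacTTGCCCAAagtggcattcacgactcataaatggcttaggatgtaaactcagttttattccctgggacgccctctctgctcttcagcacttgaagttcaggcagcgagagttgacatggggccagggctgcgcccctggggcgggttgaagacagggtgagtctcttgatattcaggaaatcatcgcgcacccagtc
HERC5 has 3 ISRE core matches, all on the minus strand, from -125 to -116, -119 to -110 and -74 to -65, of which the first pair overlap. HERC6 has none, and its C/EBP match spans -196 to -189, a motif that 9.05% of all windows hold. The STAT motif TTCNNNGAA (6.57% of all windows) and the C/EBP-ATF motif TGATGCAA (0.772%) matched no window of the members. RefSeq windows were used for 4 of the 6 genes, with UBA7 and USP18 not analysed here, and a match is a match of letters, not a measured binding site.

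**Figure D1:**
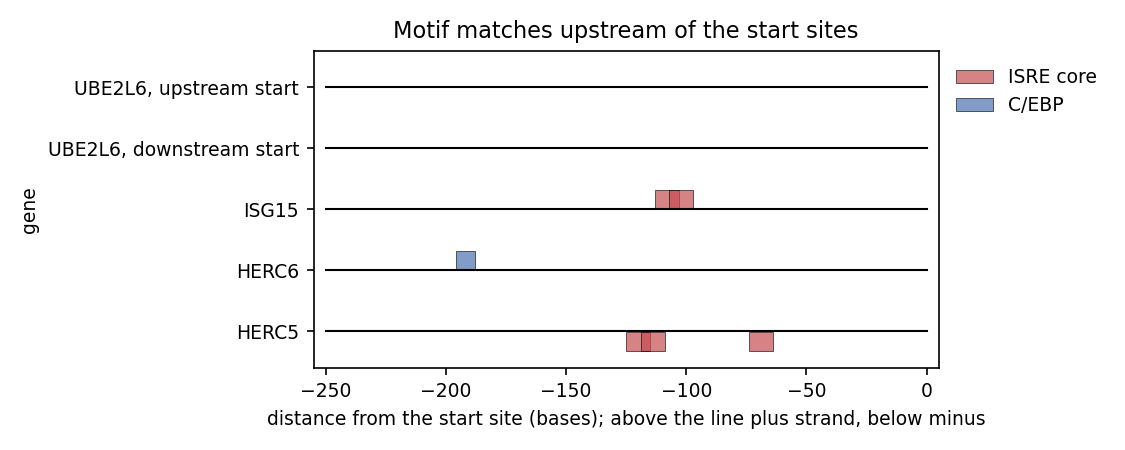
Matches in the 250 bases upstream of 5 start sites of 4 genes, by distance from the start in bases, with ISRE cores in red and the C/EBP motif in blue, above the line for the plus and below it for the minus strand. ISG15 holds 2 and HERC5 holds 3 ISRE cores between -125 and -65, and neither UBE2L6 start nor HERC6 holds one.

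USP18 removes ISG15 from its targets and, apart from this protease activity, binds the interferon receptor subunit IFNAR2 and dampens its signal. The gene (NM_017414) lies on the plus strand at chr22:18150170-18177397 with 11 exons. It had 2.57 and 3.02 FPKM in control cells and 16.6 and 15.9 FPKM in knockdown cells. Both knockdown libraries reached at least 5.28 times the level of either control. The means were 2.79 ± 0.311 FPKM and 16.3 ± 0.505 FPKM (SD, n = 2 each), and the log2 fold change was 2.19 with a standard error of 0.10 (95% interval 1.98 to 2.40, adjusted p = 1.54e-07 in limma). USP18 has a near-identical copy on the same chromosome, USP41, which was not found among the genes with values. How the authors' program divided reads between the copies is not given in the sources used here.

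The order of the members by level changed between the groups. FPKM values are per length, so genes can be set side by side. In control cells UBA7 had the highest mean FPKM, followed by UBE2L6 and ISG15, whose libraries overlapped, then USP18, HERC6 and HERC5. In knockdown cells the order was ISG15, UBE2L6, USP18, UBA7, HERC6 and HERC5, with no overlap between neighbours. Of the FPKM summed over the 6 genes, ISG15 made up 23.7% and 27.6% in the control libraries and 68.2% and 69.3% in the knockdown libraries. The share of UBA7 went from 38.3% and 33.5% to 6.84% and 6.32%. The 95% interval of ISG15's log2 fold change lay above those of the 4 others tested, while the intervals of USP18 and UBE2L6 overlapped. The differences between genes were not tested.

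Ratios of FPKM within a library, taken from the same values, restate that RNA of ISG15 rose more than that of UBA7, UBE2L6 and USP18. There were 0.620 and 0.825 ISG15 per UBA7 with sh-NC and 9.98 and 11.0 with sh-CEBPG#3. ISG15 per UBE2L6 went from 0.882 and 1.04 to 4.31 and 4.37, and ISG15 per USP18 from 2.76 and 2.82 to 8.95 and 9.44. In all 3 ratios the knockdown libraries were above both controls. Ratios to related genes of the ubiquitin system rose as well. UBE2L6 per UBE2L3, the ubiquitin E2 closest to it in sequence, was 0.374 and 0.332 in control cells and 1.43 and 1.48 in knockdown cells. UBA7 per UBA1, the main E1 of ubiquitin, was 0.189 and 0.161 against 0.255 and 0.239.

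Of 18 other genes of the ISG15 pathway, all tested, 6 rose and 5 fell at an adjusted p under 0.05, with a median log2 fold change of -0.03. Higher calls made up 18.5% and lower calls 23.8% of all genes tested. Factors that act on the ISRE were among the 6. IRF9, the DNA-binding subunit, had 3.99 and 4.13 FPKM against 31.4 and 29.9 FPKM (2.64, adjusted p = 1.65e-08 in limma), and its partner STAT2 rose by 1.51 on the log2 scale (adjusted p = 4.61e-07 in limma). The kinases JAK1 (-0.07) and TYK2 (0.00) and the receptor subunit IFNAR1 (0.05) did not pass the test, and IFNAR2 rose by 0.28 (adjusted p = 0.0284 in limma). Of the 21 interferon genes listed, only IFNB1 was found among the genes with values. It had 0.0818 and 0 FPKM in sh-NC replicates 1 and 2 and 0.0730 and 0.188 FPKM in sh-CEBPG#3 replicates 1 and 2.

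Among further enzymes with reported ISG15 activity, TRIM25, an E3 ligase, had 19.9 and 21.7 FPKM in control cells and 40.2 and 37.9 FPKM in knockdown cells (log2 fold change 0.87, adjusted p = 2.26e-05 in limma). ARIH1, another reported E3, did not pass (-0.15, adjusted p = 0.201 in limma). The 6 other proteases reported to react with ISG15 moved the other way from USP18 or did not pass. USP13 (-0.61), USP14 (-0.56), USP2 (-0.40) and USP5 (-0.22) fell (limma, each adjusted p no higher than 0.0459), while USP16 (-0.19) and USP21 (-0.21) did not pass. The chains of LFA-1, the integrin reported as a receptor of secreted ISG15, moved in opposite directions. ITGAL fell from 72.2 and 76.9 FPKM to 52.6 and 49.8 FPKM (-0.53, adjusted p = 0.000321 in limma), and ITGB2, which also pairs with other chains, rose from 122 and 138 FPKM to 244 and 235 FPKM (0.88, adjusted p = 1.88e-05 in limma).

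Of 17 genes whose proteins have been reported as ISG15 targets, 16 were tested. Of these, 9 rose and 1 fell, with a median log2 fold change of 0.40, where 18.5% and 23.8% of all genes tested did so. Among those past 2-fold were IFIT1 (4.10), an inhibitor of viral translation, the RNA sensors IFIH1 (MDA5, 1.87) and DDX58 (RIG-I, 1.40), and the RNA-activated kinase EIF2AK2 (PKR, 1.80), which are themselves known as interferon-stimulated genes. CHMP5, CGAS and HIF1A rose by 0.46 to 0.82 on the log2 scale. PCNA, the sliding clamp of DNA replication, fell from 146 and 164 FPKM to 105 and 97.4 FPKM (-0.61, adjusted p = 0.000243 in limma). MX1, an antiviral GTPase on the list, was below the filter, with 0.122 and 0.235 FPKM in control cells and 0.230 and 0.200 FPKM in knockdown cells.

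The families to which the members belong were set beside all genes tested, of which 18.5% rose and 23.8% fell at an adjusted p under 0.05 in limma. Of the 18 other ubiquitin-like modifiers tested, 5 rose and 3 fell, with a median log2 fold change of 0.07. None passed 2-fold on the log2(FPKM + 1) scale. The largest increases were those of MAP1LC3A (0.98) and GABARAPL1 (0.95), modifiers of autophagy, which were 2.43-fold and 2.11-fold in mean FPKM. The ubiquitin gene UBB passed at -0.23 (limma, adjusted p = 0.0228), a call lost without sh-CEBPG#3 replicate 1 (adjusted p = 0.283 in limma) or replicate 2 (0.15), with the replicate block (0.117), with single transcripts (0.0918) and without a filter (0.0676). Its repeated coding units make the assignment of reads uncertain. NEDD8 did not pass (-0.18, adjusted p = 0.0864 in limma). There were 0.0686 and 0.0744 ISG15 per NEDD8 by FPKM in control cells and 1.58 and 1.53 in knockdown cells.

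Of the 9 other E1 enzymes, 1 rose and 4 fell, with a median log2 fold change of -0.12. UBA1 did not pass (-0.11, adjusted p = 0.246 in limma), but it was called lower after quantile normalization (-0.14, adjusted p = 0.0166 in limma) and with equal totals (-0.13, adjusted p = 0.0228 in limma). SAE1, a subunit of the SUMO E1, fell from 46.0 and 48.6 FPKM to 23.6 and 22.1 FPKM (-1.02, adjusted p = 6.36e-06 in limma). Of the 33 other E2 enzymes, 7 rose and 6 fell (median 0.08), with UBE2W (0.80) and UBE2E2 (0.68) at the upper end and UBE2E3 (-1.36) and UBE2O (-0.72) at the lower. UBE2L3, outside the rule for named genes and chosen as the nearest relative of UBE2L6, had 21.6 and 24.7 FPKM against 24.2 and 23.2 FPKM (0.04, adjusted p = 0.762 in limma). Of the 22 other HECT ligases tested, 2 rose and 4 fell (median 0.04). HERC3 (-0.41) and HERC2 (-0.40) fell, and WWP1 (0.49) and HECTD3 (0.34) rose. The HERC3 call was lost without sh-CEBPG#3 replicate 2 (adjusted p = 0.0939 in limma), without a filter (0.0728) and with single transcripts (0.417). Of the 42 other USP proteases tested, 6 rose and 13 fell (median -0.10), from -0.71 for USP11 to 0.40 for USP32. In these families no gene was called past 2-fold upwards on the log2(FPKM + 1) scale. SAE1 and UBE2E3 were called past 2-fold downwards, which 1.05% of all genes were.

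**Figure D2:**
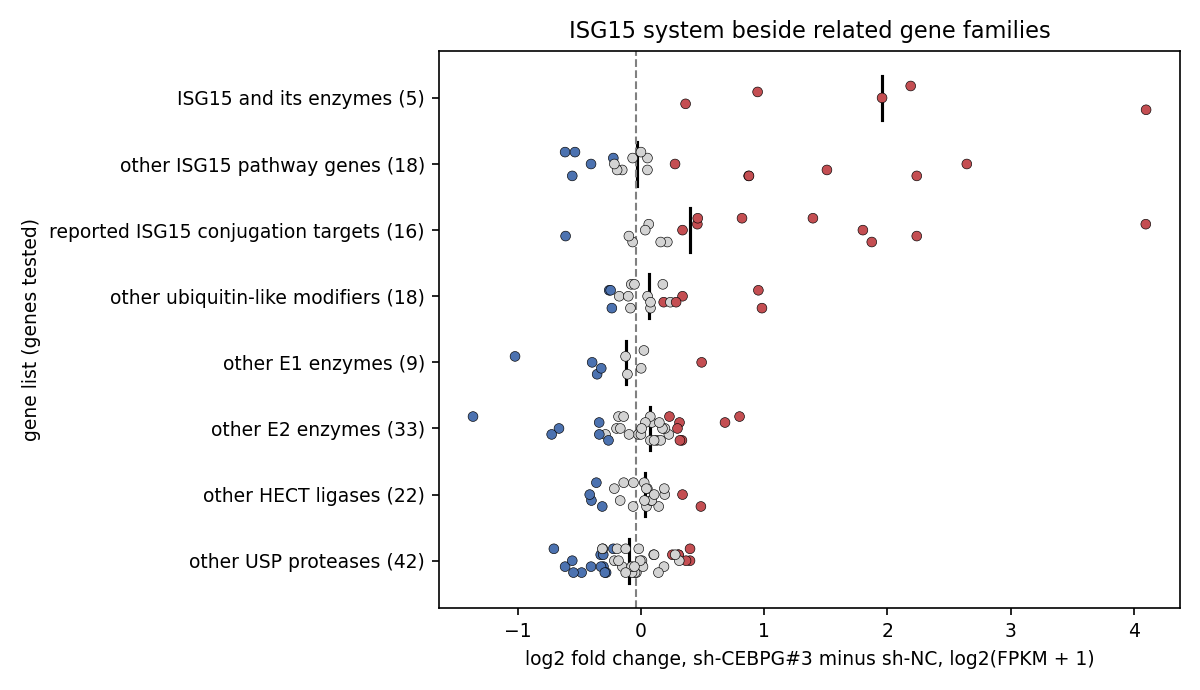
Log2 fold change (sh-CEBPG#3 minus sh-NC, on log2(FPKM + 1)) of each gene tested in 8 lists, red where higher and blue where lower at an adjusted p under 0.05 in limma and grey otherwise, with a bar at each list's median and a dashed line at the median of all genes, -0.04. The 5 genes of the ISG15 system tested lie between 0.36 and 4.10, and the other modifiers and E1, E2, HECT and USP enzymes lie between -1.36 and 0.98.

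Over these lists together, 35 of 149 genes tested rose and 32 fell. Among all genes tested, 18.5% rose and 23.8% fell by the same call. The counts of the lists moved when a library was left out, and so did those over all genes tested.

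The genes with the pattern most like that of ISG15 were sought among all genes tested, by the Euclidean distance over the 4 libraries between log2(FPKM + 1) values centred on each gene's control mean. The nearest were IFIT1 (distance 0.09), OAS1 (0.23), OAS3 (0.32), IFIT3 (0.33) and IL4I1 (0.37). IFIT1 had 0.171 and 0.309 FPKM in control cells and 20.9 and 19.5 FPKM in knockdown cells. It was thus much lower in level than ISG15 and close to it in log2 difference. Of the members, USP18 was 34th by this distance (2.70), UBE2L6 49th (3.03), HERC6 322nd (4.46) and UBA7 1670th (5.29). With 4 libraries in 2 groups, this measure mostly reflects the size of the difference between the groups.

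**Figure D3:**
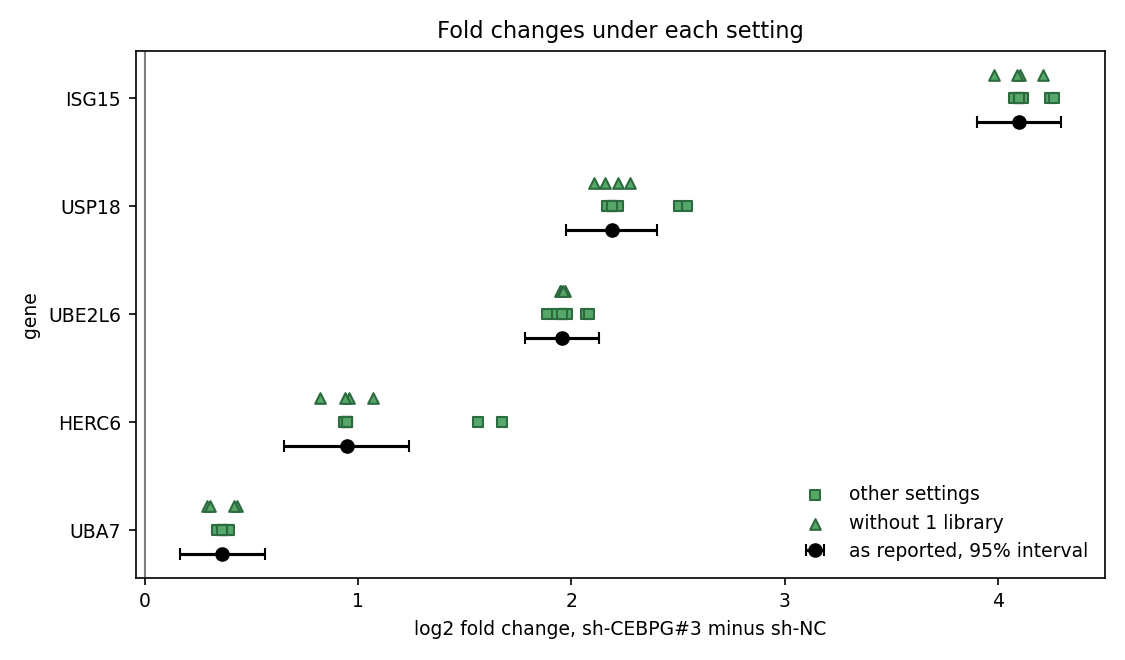
Log2 fold changes of the 5 genes tested, as reported with the 95% interval of limma (black), under 8 other settings (green squares) and with each of the 4 libraries left out (green triangles). Every point lies above 0, and the order ISG15, USP18, UBE2L6, HERC6 and UBA7 is kept within each setting.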

How the data were processed

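RNA of MV4-11 cells was sequenced by the authors, who filtered the reads, mapped them with HISAT (HISAT2 2.0.5 and hg38 in the submitters' processing notes) and deposited FPKM values per RefSeq transcript and library. The program that computed them and the annotation release are not given in the sources used here. Of 28780 rows, 199 held no value. Among 1027 transcripts under 0.06 FPKM in both sh-NC libraries at most 1.27% shared 1 ratio, so whole reads were not recovered and no depth or floor is given.

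Transcripts were summed by symbol. Genes whose 4 libraries averaged 0.5 FPKM or more were tested on log2(FPKM + 1) with limma 3.58.1 in R 4.3.3 (eBayes with a trend), two-sided, with Benjamini-Hochberg adjustment over all genes tested. Between 2 libraries and 2 libraries an exact two-sided permutation test cannot go below p = 0.333, so p-values rest on limma's variance model. The fit was tested on simulated data. Genes named are the 6 genes, CEBPG, all genes of lists with at most 20 genes, the 2 largest increases and decreases of longer lists, and the 5 genes most like ISG15. The genes and lists were chosen with earlier results of these data known. The alternatives were other pseudocounts, filters and scalings, the replicate number as a block, single transcripts and leaving out each library. Coordinates are those of RefSeq on GRCh38.p14, and strands and exon counts those of GENCODE v44. Some genes of the lists are counted but not reported by name here.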

Additional observations from a re-analysis of the deposited data

How the results depend on the processing

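The log2 fold changes of ISG15, USP18 and UBE2L6 stayed past the threshold under all 8 alternatives (4.07 to 4.26 for ISG15, 2.17 to 2.54 for USP18 and 1.88 to 2.08 for UBE2L6) and with each library left out (3.98 to 4.21, 2.11 to 2.27 and 1.94 to 1.97). With single transcripts 3 of the 6 genes passed in place of 5, as HERC6 (0.95, adjusted p = 0.0568 in limma) and UBA7 (0.36, adjusted p = 0.103) did not. That fit also called fewer genes in all, taking for each gene its transcript with the highest mean. Of 11992 genes, 640 were called higher and 645 lower, against 2244 and 2884 of 12142. Leaving out 1 library gave 4 to 5 of the genes past the threshold, 0.29 to 0.43 for UBA7 and 0.82 to 1.07 for HERC6. In these fits the group left with 1 library is assumed to vary like the other. Of the 149 genes of the other lists, 35 rose and 32 fell. These counts were 15 and 7 with single transcripts and 24 and 18 of 157 without a filter. They were 44 and 37 after quantile normalization and 38 and 43 with equal totals. The calls over all genes moved too. Without a filter, 1861 of 16490 genes rose and 2232 fell. Of 12142 genes, 2697 rose and 3054 fell after quantile normalization, and 2346 rose and 3501 fell with equal totals. Without 1 library 22 to 36 rose and 17 to 34 fell. UBE2L3 (-0.059 to 0.13) and HERC4 (-0.018 to 0.12) changed sign without a library, and neither was called. For none of these was the cause tested. With the replicate block 5 of the genes passed, as without it. In that fit the standard error was 0.12 for ISG15, UBA7, UBE2L6 and USP18 and 0.15 for HERC6. It rested almost wholly on limma's variance model over all genes, so this pass says little about each gene's own spread. The replicate numbers come from the titles, and same-numbered libraries deviated with a correlation of 0.0606 across genes. With 2 libraries per group, this value cannot show whether same-numbered libraries share more than the number. Without counts, the precision of low values such as those of HERC5 is not known.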

Other observations

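The genes beside the members on their chromosomes were looked up in the RefSeq annotation of GRCh38.p14, taking on each side the nearest gene with a value in the table. HES4 and AGRN, which flank ISG15 at 13400 and 5580 bp, had log2 fold changes of 0.08 (adjusted p = 0.623 in limma) and 0.07 (adjusted p = 0.517 in limma). HES4 had 2.25 and 2.81 FPKM in control cells and 2.72 and 2.70 FPKM in knockdown cells, and the groups overlapped. Beside the ligase pair, PYURF next to HERC5 (0.08) and PPM1K next to HERC6 (0.27) did not pass, with adjusted p = 0.424 and adjusted p = 0.0814 in limma. INKA1 and TRAIP, on the sides of UBA7, fell by 0.38 and 0.57 on the log2 scale, and TUBA8 near USP18 fell by 0.47 (adjusted p of 0.000955 to 0.0110 in limma). SMTNL1 and YPEL4 beside UBE2L6 and TMEM191B, 350405 bp from USP18, were below the filter. TMEM191B had 0.263 and 0.227 FPKM in control and 0.921 and 0.513 FPKM in knockdown cells. YPEL4 had 0.129 and 0.168 against 0.303 and 0.270 FPKM, so neither overlapped between the groups, whereas SMTNL1 did. Of the 7 neighbours tested that are not themselves members, 0 were called higher and 3 lower. Of all genes tested, 18.5% were called higher and 23.8% lower. At an unadjusted p under 0.05 in limma, PPM1K was the only one of the 7 that was higher.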
